A study of Mus musculus with 4 samples.

Results

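The genes described here encode the subunits of the pituitary glycoprotein hormones: Cga, the alpha subunit shared by all of them, and the beta subunits Lhb (luteinizing hormone), Fshb (follicle-stimulating hormone) and Tshb (thyroid-stimulating hormone). They were chosen by name, and all 4 were found among the 31053 genes of the count matrices. Single pituitary cells had been measured by droplet RNA sequencing in mice that overexpress p25 (p25OE) and in their wild-type (WT) littermates, aged 14 or 40 weeks. The strain label of all is C57BL/6- B6;CBA-BiTg mice. The kinase Cdk5 is activated by p35, the product of Cdk5r1, and p25 is cut from p35. The promoter that drives p25, the sex of the mice and the number of glands per library are not given in the sources used here. Each group had a single library, which leaves the spread between animals unmeasured. No p-value was computed, and every interval is an exact 95% interval for counting error only.

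A glycoprotein hormone is a pair of the common alpha subunit and a hormone-specific beta subunit, and the beta subunit decides which receptor it binds. Gonadotrophs make Cga with Lhb, Fshb or both under the control of gonadotropin-releasing hormone (GnRH), with activin acting chiefly on Fshb. Thyrotrophs make Cga with Tshb, driven by thyrotropin-releasing hormone and held down by thyroid hormone.

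In the mouse reference annotation of build GRCm38, Cga (ENSMUSG00000028298) lies on the plus strand at chr4:34893779-34907370, and Lhb (ENSMUSG00000100916) on the plus strand at chr7:45420820-45421897. Fshb (ENSMUSG00000027120) lies on the minus strand at chr2:107056140-107059656, and Tshb (ENSMUSG00000027857) on the minus strand at chr3:102775465-102782718. Platr9 overlaps Cga, Ruvbl2 overlaps Lhb and Tspan2 overlaps Tshb, each on the opposite strand, and no gene overlaps Fshb. The RefSeq promoters of all 4 genes (GRCm38.p6, 250 bases before to 50 after the start, 5′ to 3′ on the gene's strand) are shown because Cga alone is shared between the cell types that part the beta subunits. The Lhb window starts before and ends inside the annotated gene given above, since the sources place the start differently. The windows span chr4:34893529-34893828 (Cga), chr7:45420696-45420995 (Lhb), chr2:107059602-107059901 (Fshb) and chr3:102782665-102782964 (Tshb). Capitals mark exact matches on either strand to TATAAA, the box bound by the TATA-binding protein, TGACCT (a core bound by nuclear receptors), GATTA (the core bound by bicoid-type homeodomains such as Pitx1) and CGCCCCC (the core bound by Egr factors).
Cga: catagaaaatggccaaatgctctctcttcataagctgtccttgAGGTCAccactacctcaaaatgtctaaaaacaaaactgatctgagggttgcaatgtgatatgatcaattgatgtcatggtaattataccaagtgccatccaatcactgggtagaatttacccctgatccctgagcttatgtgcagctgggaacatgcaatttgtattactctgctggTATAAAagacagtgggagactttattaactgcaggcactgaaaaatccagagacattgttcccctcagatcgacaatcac
Lhb: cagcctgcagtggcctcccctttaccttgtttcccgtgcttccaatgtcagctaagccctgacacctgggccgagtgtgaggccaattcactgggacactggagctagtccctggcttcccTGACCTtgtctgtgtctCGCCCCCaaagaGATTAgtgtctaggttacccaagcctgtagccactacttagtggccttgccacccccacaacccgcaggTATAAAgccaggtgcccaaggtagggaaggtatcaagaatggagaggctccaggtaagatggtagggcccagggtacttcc
Fshb: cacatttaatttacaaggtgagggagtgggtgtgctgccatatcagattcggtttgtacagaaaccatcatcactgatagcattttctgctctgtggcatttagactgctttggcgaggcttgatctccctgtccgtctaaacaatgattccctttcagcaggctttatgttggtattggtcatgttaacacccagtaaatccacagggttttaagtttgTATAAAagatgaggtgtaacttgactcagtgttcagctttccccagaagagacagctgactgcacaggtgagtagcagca
Tshb: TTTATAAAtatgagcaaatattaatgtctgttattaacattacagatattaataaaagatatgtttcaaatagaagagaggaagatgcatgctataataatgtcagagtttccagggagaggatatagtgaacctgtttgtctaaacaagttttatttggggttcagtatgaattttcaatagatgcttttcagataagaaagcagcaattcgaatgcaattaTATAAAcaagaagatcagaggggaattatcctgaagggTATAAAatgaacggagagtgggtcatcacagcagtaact
All 4 windows hold a TATAAA match, at base -30 in Cga and Fshb, -31 in Lhb and -27 in Tshb, which has 4 matches, with those at bases -250 and -248 overlapping. Of 32851 RefSeq promoter windows of the same length, 13.6% hold this motif. The TGACCT match occurs in Cga (base -207, on the opposite strand) and Lhb (base -129), against 16.3% of all windows. Among the 4 windows GATTA matches in Lhb alone, at base -100, against 22.0% of all windows. The Egr core also matches in Lhb alone, at base -112, against 16.4%. A match is a run of letters and was not tested as a binding site.

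The libraries held 95242353 (WT, 14 weeks), 77275454 (p25OE, 14 weeks), 53714895 (WT, 40 weeks) and 60662506 UMIs (p25OE, 40 weeks), unique molecular identifiers that count captured RNA molecules, and this order is used throughout. Barcodes with at least 500 genes and at most 20% mitochondrial UMIs were kept as cells, which left 6579, 7667, 7927 and 7726 with medians of 10778, 6340, 4940 and 6626 UMIs. Libraries of different age shared only 1 to 5 barcodes, so that age and barcode set cannot be told apart. Of all barcodes, 32 occurred in both 14-week libraries and 135 in both 40-week libraries, and none of those kept in p25OE was high for a subunit. In WT such barcodes included 1 Cga-high cell at 14 weeks, and 4 Cga-high, 2 Lhb-high and 4 Tshb-high cells at 40 weeks. Doublets were not removed. Xist, the RNA of X inactivation, was at 986 to 1534 CPM in all 4 libraries, and 4 Y-linked genes together at 4 to 19 UMIs. Cdk5r1 was at 10.8, 14.4, 10.4 and 17.5 CPM (UMIs per 1000000 UMIs).

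The alpha subunit gene Cga was the most abundant of the 4 genes in every library. Its level over all kept cells was 1935 CPM in WT and 1679 CPM in p25OE at 14 weeks. The 40-week WT library held 4234 CPM and the 40-week p25OE library 109 CPM. The level in p25OE at 40 weeks is below those of the other 3 libraries by over an order of magnitude. After scaling to the median gene, Cga was 56.0-fold lower (54.6 to 57.4) in p25OE than in WT at 40 weeks. At 14 weeks it was 1.39-fold lower (1.38 to 1.40), a direction that depended on how cells were weighted. Taken as the mean over cells of the level per cell, Cga was higher in p25OE at 14 weeks by 0.22 on the log2 scale, against lower by 0.48 on the summed counts (a log2 ratio of -0.48). In bulk sums such as these, fewer cells of a type and less RNA per cell cannot be told apart.

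The beta subunits of luteinizing and follicle-stimulating hormone differed between the ages of WT. Lhb was at 96.9, 81.0, 461 and 3.74 CPM, and Fshb at 29.5, 26.1, 10.9 and 0.232. Lhb was thus highest and Fshb lowest among the first 3 libraries in WT at 40 weeks. Between 14 and 40 weeks in WT, Lhb was 5.82-fold higher (5.68 to 5.97) and Fshb 2.22-fold lower (2.02 to 2.43). At 40 weeks p25OE was 178-fold below WT for Lhb (156 to 204) and 67.9-fold below for Fshb (40.1 to 125), the latter from 14 UMIs in the whole p25OE library against 543. At 14 weeks both were lower in p25OE on the summed counts, Lhb 1.45-fold (1.400 to 1.497) and Fshb 1.37-fold (1.29 to 1.45). As for Cga, both directions turned with the mean per cell (log2 ratios of 0.57 and 0.14), and that of Fshb also with a stricter filter of 1000 genes and 10% mitochondrial UMIs (0.04). The part in the Lhb difference between ages of UMIs outside the cells with a high level, described below, was not tested.

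Tshb, the beta subunit of thyroid-stimulating hormone, was at 203, 418, 871 and 1.59 CPM. It was the only one of the 4 genes to be higher in p25OE than in WT at 14 weeks, by 1.70-fold (1.67 to 1.73), and it stayed higher under each of the scalings and filters tried. At 40 weeks it was 792-fold lower (648 to 978), from 96 UMIs against 43449, which is the largest ratio of the 4. In WT it was 5.25-fold higher (5.16 to 5.34) at 40 than at 14 weeks. Among hormone genes of other pituitary cells at 40 weeks, Gh was 102-fold and Prl 30.5-fold lower in p25OE than in WT. Pomc was 2.36-fold higher, so low levels there were not particular to the subunits. Among all genes with at least 40 UMIs in both libraries together, 13.4% were at least 1.5-fold higher and 7.86% lower in p25OE at 14 weeks. At 40 weeks the shares were 22.6% and 22%, and between the ages of WT 17.7% and 18.7%. Within p25OE all 4 subunits were lower at 40 than at 14 weeks, from 15.003-fold for Cga to 257-fold for Tshb, where 23.6% of all genes were higher and 29.1% lower. Between the genotypes, by that measure, 1 of the 4 subunits was higher and none lower at 14 weeks, and 4 of 4 were lower at 40 weeks.

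**Figure D1:**
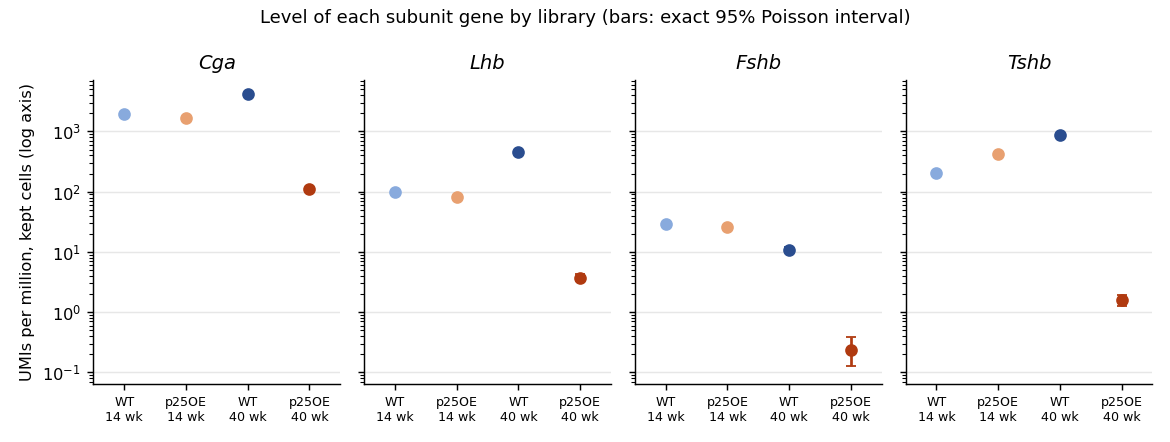
Level of Cga, Lhb, Fshb and Tshb in each library, in CPM of all kept cells on a log axis, with 1 point per library and exact 95% Poisson intervals. All 4 genes are lowest in p25OE at 40 weeks, between 0.232 (Fshb) and 109 CPM (Cga), and Fshb is the only gene lower in WT at 40 than at 14 weeks.

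Cells with a high level of a subunit were few. A cell was called high for Cga with at least 100 Cga UMIs per 10000 of its UMIs, and high for a beta subunit with at least 20, in each case with at least 3 UMIs. Cga-high cells numbered 149, 235, 212 and 22, or 2.26% (1.92 to 2.65), 3.07% (2.69 to 3.48), 2.67% (2.33 to 3.05) and 0.285% (0.179 to 0.431) of the kept cells. They held 95.4%, 92.9%, 69.1% and 68.3% of all Cga UMIs. Their median level was 599, 441, 627 and 258 UMIs per 10000, and the highest cell of each library reached 2411, 2821, 2541 and 1178. The Cga-high share was 1.35-fold higher (1.10 to 1.67) in p25OE than in WT at 14 weeks and 9.39-fold lower at 40 weeks.

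Lhb-high cells numbered 65, 106, 117 and 4, Fshb-high cells 30, 39, 5 and 0, and Tshb-high cells 58, 90, 114 and 2. Lhb-high cells held 89.0%, 83.9%, 44.2% and 50% of the Lhb UMIs, and in WT at 40 weeks Fshb-high cells held 20.99% of the Fshb UMIs. At 14 weeks the share of Lhb-high cells was 1.40-fold higher in p25OE (1.02 to 1.94), while the intervals for Fshb (1.12-fold, 0.675 to 1.86) and Tshb (1.33-fold, 0.947 to 1.89) include 1. The Fshb ratio, 0.16 on the log2 scale, was -0.37 with a threshold of 40 per 10000, -0.0083 over all barcodes and 0.80 with the stricter filter. At 40 weeks the shares were 28.5-fold lower for Lhb and 55.6-fold lower for Tshb, or log2 ratios of -4.83 (-6.73 to -3.44) and -5.80 (-8.86 to -3.91). The Lhb ratio was -6.06 with a threshold of 10 per 10000 and -3.96 for cells that were also Cga-high. At 40 per 10000 no p25OE cell was Tshb-high, against 85 in WT. At the main threshold 0 of 7726 p25OE cells were Fshb-high, which allows a share of up to 0.0477%. In WT the Fshb-high share was 7.23-fold lower at 40 than at 14 weeks, 0.0631% against 0.456%. The high cells of p25OE at 14 weeks were shallower than those of WT, with medians of 6435 against 17190 UMIs in Cga-high cells, and the part of this gap in the counts was not tested.

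The beta subunits of the gonadotropins and of thyroid-stimulating hormone were nearly never high in the same cell. Of the 160, 258, 287 and 24 cells high for any subunit, only 1 was high for both Lhb and Tshb, a p25OE cell of 14 weeks with 28604 UMIs, and none for Fshb and Tshb. Fshb-high cells were Cga-high without exception, in 30 of 30, 39 of 39 and 5 of 5 cells. They were also Lhb-high in 29 of 30, 31 of 39 and 5 of 5 cells. The reverse was less complete, since 29 of 65, 31 of 106 and 5 of 117 Lhb-high cells were Fshb-high. In WT at 40 weeks these 5 were among the 64 Lhb-high cells that were also Cga-high. Tshb-high cells were Cga-high in 50 of 58, 78 of 90 and 92 of 114 cells, and in 0 of 2 in p25OE at 40 weeks. Cells high for Cga alone numbered 36, 55, 56 and 18, with median Cga levels of 204, 246, 225 and 213 UMIs per 10000, below those of all Cga-high cells.

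In WT at 40 weeks many Lhb-high cells were not Cga-high. There, 53 of 117 lacked a high Cga level, against 3 of 65 in WT and 11 of 106 in p25OE at 14 weeks. These 53 cells had a median of 1375 UMIs, and 48 of them also held at least 1000 UMIs per 10000 of Gh, Prl or Pomc, the hormone genes of other pituitary cells. With the threshold for Lhb at 40 and that for Cga at 200 per 10000, 63 Lhb-high cells remained in this library, and 93.7% of them were Cga-high. The levels of Lhb within cells are given below for cells chosen by markers.

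**Figure D2:**
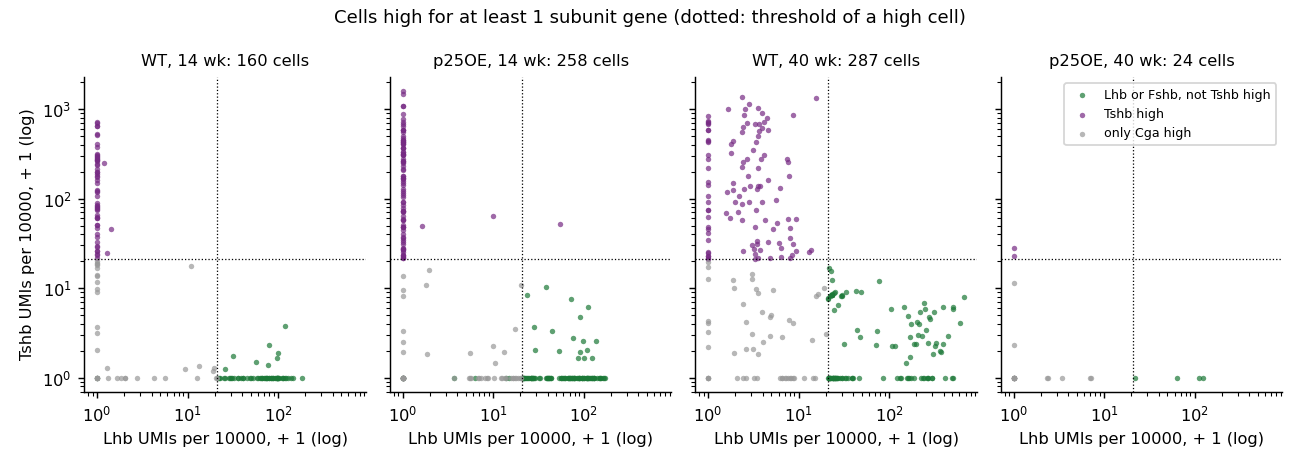
Every cell high for at least 1 subunit gene, placed by its Lhb and Tshb level in UMIs per 10000 plus 1 on log axes, by library, with dotted lines at the threshold of a high cell. Only 1 cell, in p25OE at 14 weeks, lies past both lines. Below the lines, Lhb-high cells of WT at 40 weeks held up to 15.7 Tshb UMIs per 10000, and Tshb-high cells up to 14.7 Lhb UMIs.

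Markers that the thresholds did not use were found at different rates in these cells, some in both kinds. Among Cga-high cells that were also high for Lhb or Fshb, the GnRH receptor gene Gnrhr was detected in 59 of 63, 76 of 102, 51 of 64 and 3 of 4 cells. It was detected in 0 of 50, 0 of 77 and 2 of 92 cells high for Cga and Tshb. The receptor gene for thyrotropin-releasing hormone, Trhr, was detected in 32 of 50, 32 of 77 and 28 of 92 of the latter, and in none of the former in any library. Sox14 was detected in neither. Other thyrotroph markers were detected in both sets, which in WT at 14 weeks held 63 cells high for Lhb or Fshb and 50 high for Tshb. Gata2 was detected in 32 and 37 of these, Dio2 in 20 and 40, and Rxrg in 6 and 38. In WT at 40 weeks Gata2 was found in 23 of 64 and 48 of 92 cells. Foxl2, a forkhead factor of both lineages, was found in 48 of 63 and 25 of 50 cells in WT at 14 weeks. Pou1f1, the factor of the thyrotroph, somatotroph and lactotroph lineage, was found in 16 of 63 and 43 of 50. All these sets include cells with at least 1000 UMIs per 10000 of Gh, Prl or Pomc. Without such cells, 52 of the 63 and 38 of the 50 remain. The part of doublets in the detection of a marker in both sets was not tested.

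The genes whose level per cell was most like that of the subunits were ranked by Pearson's r across the kept cells of a library, averaged over the 3 libraries with at least 30 high cells (for Fshb, the 2 of 14 weeks). For Cga they were Tgfbr3l (mean r of 0.46), Gnrhr, Foxl2, Nr5a1 and Spp1. For Lhb they were Tgfbr3l (0.60), Gnrhr (0.57), Rnase1, Spp1 and Nr5a1, and for Fshb Gnrhr (0.67), Tgfbr3l (0.64), Spp1, Nr5a1 and Nr0b1. For Tshb they were Trhr (0.37), Dio2 (0.31), Prss28, Kcnk9 and Vdr. Tgfbr3l is an inhibin co-receptor of gonadotrophs, Nr5a1 and Nr0b1 are nuclear receptors of that lineage, and Dio2 activates thyroid hormone. Between the members, the mean r was 0.47 for Cga and Lhb, 0.38 for Cga and Tshb, 0.67 for Lhb and Fshb at 14 weeks and 0.00 for Lhb and Tshb. The means hide a wide spread between libraries. For Lhb, r ran from 0.25 to 0.86 with Tgfbr3l, from 0.24 to 0.82 with Gnrhr and from 0.21 to 0.61 with Cga. Lhb and Fshb were at 0.62 to 0.72 at 14 weeks, and at 0.20 in WT at 40 weeks. Cells of 1 library share its depth and its free RNA, and these values are descriptions.

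To compare levels in cells chosen without the subunits, cells were gated by markers. A gonadotroph-marker cell held UMIs of at least 3 of Gnrhr, Nr5a1, Tgfbr3l, Nhlh2, Foxp2, Foxl2 and Nr0b1, at 10 or more per 10000 together. A thyrotroph-marker cell held at least 3 of Trhr, Dio2, Sox14, Gata2 and Rxrg, at 3 or more per 10000. The cutoffs were set after the data were seen. Cells that also passed a gate for another cell type were left out. At 14 weeks 14 Lhb-high and 13 Tshb-high cells of WT passed more than 1 gate, against 3 and 4 of p25OE. No gate was passed by 2 Lhb-high and 11 Tshb-high cells of WT, against 30 and 40 of p25OE. The gates thus took in different parts of the high cells of the 14-week libraries, and the part of this in the ratios below was not tested. Gonadotroph-marker cells numbered 47, 80, 42 and 4 and thyrotroph-marker cells 27, 38, 26 and 3. Cga was high in 46 of 47, 76 of 80, 41 of 42 and 3 of 4 of the former.

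In gonadotroph-marker cells all 3 of their subunit genes were lower in p25OE than in WT at 14 weeks. The median cell held 1165 Cga UMIs per 10000 in WT and 645 in p25OE, 83.3 and 69.0 Lhb UMIs, and 20.01 and 7.34 Fshb UMIs. The cells overlapped widely, from 5.06 to 2411 for Cga in WT and from 41.6 to 2821 in p25OE. The gate took in more cells with little Lhb in p25OE, where 59 of 80 were Lhb-high, against 43 of 47 in WT. The lower quartile of Lhb was 16.1 UMIs per 10000 in p25OE and 58.5 in WT. The part of such cells in the ratios was not tested. On the summed UMIs Cga was 1.58-fold lower (1.56 to 1.59), Lhb 1.42-fold lower (1.37 to 1.48) and Fshb 1.48-fold lower (1.39 to 1.59). Of all genes in these cells, 10.9% were at least 1.5-fold higher and 10.8% lower, and 1 of the 3 subunits, Cga, was past that fold. As CPM without the scaling, the Cga ratio of p25OE over WT was 0.707, short of that fold. The ratio of the beta subunits overlapped between the libraries, with 2.71 (2.58 to 2.85) Lhb UMIs per Fshb UMI in WT and 2.83 (2.659 to 3.005) in p25OE. Without the richest cell of each library, Cga was 1.43-fold, Lhb 1.27-fold and Fshb 1.37-fold lower.

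Between the ages of WT the gonadotropin subunits differed in opposite directions in these cells. The median gonadotroph-marker cell held 83.3 Lhb UMIs per 10000 at 14 weeks and 224 at 40 weeks, with 20.01 and 1.70 for Fshb and 1165 and 743 for Cga. The interquartile ranges did not overlap for Lhb, at 58.5 to 99.0 against 164 to 320, and 15 of 42 cells had no Fshb UMI at 40 weeks against 10 of 47. On the summed UMIs Lhb was 3.001-fold higher (2.90 to 3.11), Fshb 3.96-fold lower (3.45 to 4.55) and Cga 1.42-fold lower (1.40 to 1.44). The Lhb to Fshb ratio was 32.2 (28.2 to 36.9) at 40 weeks, and Cga UMIs per Lhb UMI were 3.55 against 15.1 at 14 weeks. Of all genes in these cells, 7.42% were at least 1.5-fold higher and 29.1% lower. The median gene was at a log2 ratio of -0.24. Lhb was past that fold on the higher side and Fshb on the lower side. Cells of WT at 40 weeks that were high for no subunit held Lhb at 261 CPM, against 23581 CPM in the gonadotroph-marker cells.

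In thyrotroph-marker cells the summed Tshb level was also higher in p25OE than in WT at 14 weeks. The gate took in 19 of the 58 Tshb-high cells and 40.3% of the Tshb UMIs of kept cells in WT. In p25OE it took in 33 of 90 and 65.5%, and the part of this in the ratios was not tested. The median cell held 123 Tshb UMIs per 10000 in WT and 137 in p25OE, the upper quartile 279 and 399, and the highest cell 645 and 1462. The libraries thus differed more in their upper cells than in their medians. On the summed UMIs Tshb was 1.75-fold higher in p25OE (1.70 to 1.80), and 1.58-fold higher without the richest cell of each library, which alone held 21.7% of these Tshb UMIs in p25OE and 11.9% in WT. Among the same cells, Cga was 1.35-fold lower (1.32 to 1.37) in p25OE. There were therefore 1.37 (1.34 to 1.39) Cga UMIs per Tshb UMI in p25OE, against 3.22 (3.14 to 3.31) in WT at 14 weeks and 2.91 (2.85 to 2.96) in WT at 40 weeks. Of all genes in these cells, 11.7% were at least 1.5-fold higher and 6.27% lower. Between the ages of WT, Cga was 1.81-fold (1.78 to 1.84) and Tshb 2.01-fold higher (1.95 to 2.06) at 40 weeks, where 9.22% of genes were at least 1.5-fold higher and 37.6% lower. The median gene was at a log2 ratio of -0.25.

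**Figure D3:**
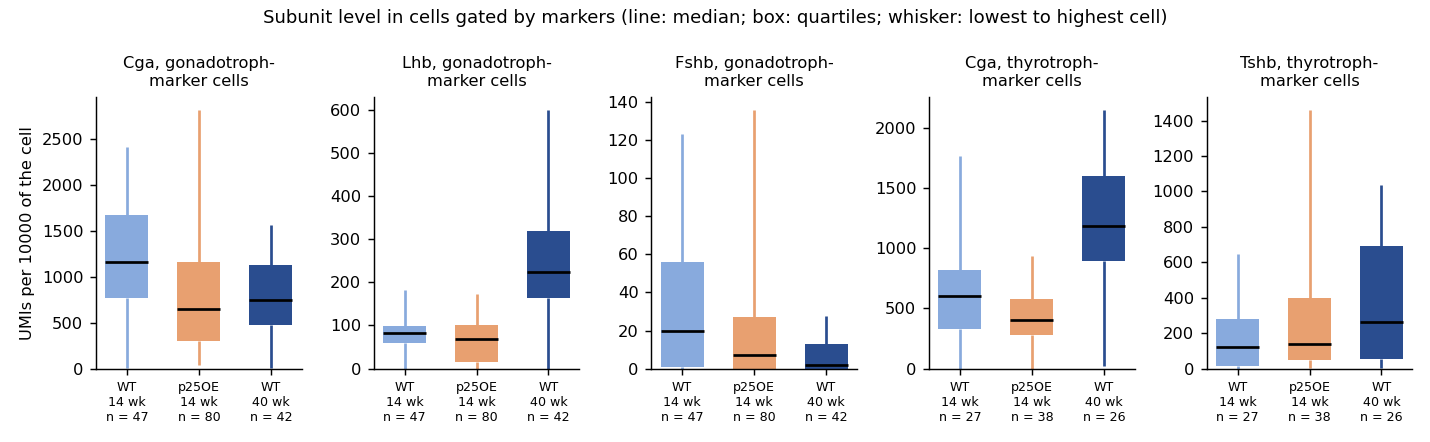
Level of the subunits in cells gated by markers that include no subunit, in UMIs per 10000 of the cell, for the 3 libraries with at least 20 such cells. Black lines are medians, boxes quartiles and whiskers the lowest and highest cell. Lhb is highest in WT at 40 weeks (median of 224) and Fshb is lowest there (1.70), while the Tshb boxes overlap between the 14-week libraries.

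The 24 subunit-high cells of p25OE at 40 weeks were made up of 18 high for Cga alone, 4 for Cga and Lhb, and 2 for Tshb alone. The cell with the highest Cga level held 1436 Cga UMIs of 12194, with 3 Lhb UMIs and none of Fshb or Tshb. The 4 cells high for Cga and Lhb held 20, 51, 30 and 12 Lhb UMIs beside 710, 331, 95 and 20 Cga UMIs, and 1 of them held 8 Fshb UMIs. Both Tshb-high cells lay just above the threshold, at 21.7 and 26.9 UMIs per 10000, with 15 and 29 Tshb UMIs. In WT at 40 weeks the Tshb-high cells reached 1365 per 10000, with a median of 127. None of the 24 cells held 1000 UMIs per 10000 of Gh, Prl or Pomc. Their Pomc level was 107 to 266 UMIs per 10000, in a library where Pomc made up 127249 CPM. A barcode of this library left out for 24.0% mitochondrial UMIs held 124 Cga and 111 Lhb UMIs, 73.0% of all Lhb UMIs outside the kept cells.

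UMIs of the subunits were also found in cells that should lack them, most of all in WT at 40 weeks. Cells with markers of T or NK cells, lymphocytes that make no pituitary hormone, held Cga at 99.4, 91.9 and 1662 CPM in the first 3 libraries (265, 102 and 171 cells). Cga was detected in 17.7%, 24.5% and 98.2% of them, at median depths of 2783, 3760.5 and 2467 UMIs. Thinned to 1000 UMIs per cell, the shares were 7.20%, 8% and 83.04%. Over all kept cells a Cga UMI was found in 37.8%, 39.1%, 99.0% and 16.6%, so that detection of Cga in WT at 40 weeks is at the level of this background and is not read as expression. In the cells of that library that were high for no subunit, Lhb was detected in 73.2%, Tshb in 58.5% and Fshb in 3.06%, against 4.07%, 14.3% and 0.888% in WT at 14 weeks.

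The proportion of Lhb to Tshb differed between high cells and background. Cells high for no subunit held Cga at 1348, Lhb at 261, Fshb at 5.08 and Tshb at 177 CPM in WT at 40 weeks, against 76.4, 6.28, 0.889 and 20.2 in WT at 14 weeks. In the first 3 libraries the cells high for a subunit held 0.495, 0.184 and 0.301 Lhb UMIs per Tshb UMI, and those high for none 0.311, 0.373 and 1.47. Cells with macrophage, T or NK markers and high for no subunit held 0.92, 0.560 and 1.70, and the barcodes left out 3.82, 0.765 and 1.83. The ratio was thus higher in those marker cells and in the left-out barcodes than in the high cells of all 3 libraries. The left-out barcodes are not background alone. At 14 weeks they included a barcode with 1031 Cga and 119 Lhb UMIs in WT and one with 567 and 99 in p25OE. They held Cga at 2285 and 2137 CPM there, against 76.4 and 109 in the cells high for no subunit. Tgfbr3l, the gene most like Lhb, was 11.6-fold higher at 40 than at 14 weeks in WT cells high for no subunit. The background was lowest in p25OE at 40 weeks, with 33.2 CPM of Cga in cells high for no subunit.

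**Figure D4:**
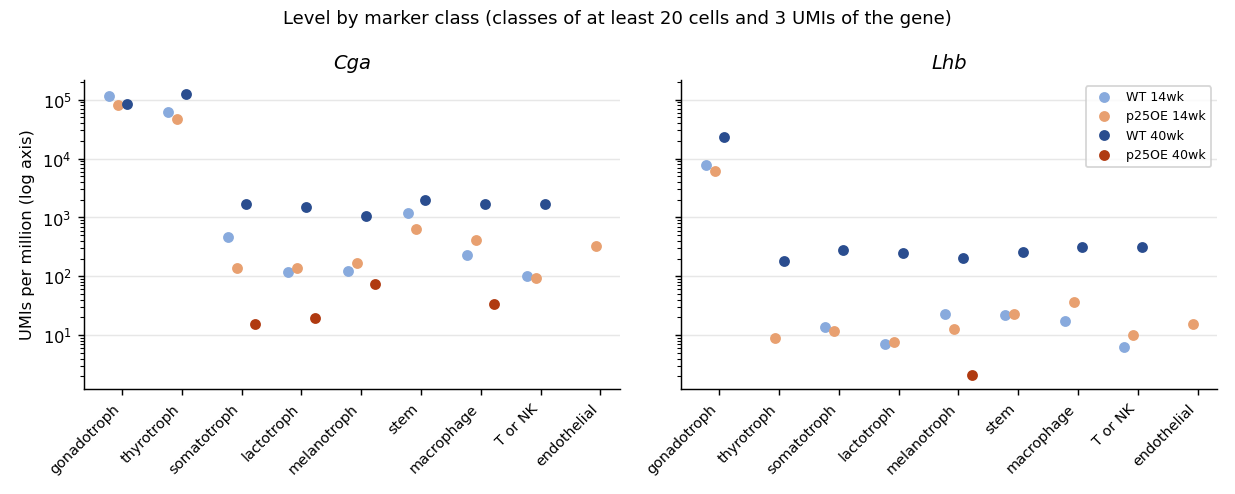
Cga and Lhb level by marker class and library, in CPM on a log axis, for classes of at least 20 cells and 3 UMIs of the gene. In classes other than gonadotroph and thyrotroph, WT at 40 weeks (dark blue) lies above the other libraries, at 1068 to 1944 CPM of Cga in the classes shown.

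Genes that regulate the subunits were compared at 14 weeks in cells high for Cga with Lhb or Fshb (94 in p25OE, 52 in WT) and for Cga with Tshb (73 and 38), leaving out cells with 1000 UMIs per 10000 of Gh, Prl or Pomc. Of all genes tested in the first set, 8.63% were at least 1.5-fold higher and 12.2% lower in p25OE, and in the second 10.8% and 8.44%. Of 25 gonadotroph regulators, 20 had at least 40 UMIs, of which 3 were higher and 4 lower (median -0.09 on the log2 scale, against -0.05 for all genes). The counts depended on the cells left out. With those cells kept in (102 in p25OE, 63 in WT), 21 regulators were measured, 1 higher and 3 lower. Their median was then 0.06, against -0.07 for all genes. The homeodomain factor gene Isl1 was 1.998-fold higher (1.47 to 2.73) and Egr1, the GnRH-induced activator of Lhb, 1.56-fold higher (1.37 to 1.77). Nhlh2, a helix-loop-helix factor of gonadotrophs, was 1.81-fold lower, and Ctnnb1, which encodes beta-catenin, 1.80-fold lower. In the kept cells high for no subunit Isl1 was 1.72-fold and Egr1 1.39-fold higher and Ctnnb1 1.26-fold lower, and Nhlh2 was at 38 against 59 UMIs (1.43-fold lower, 0.936 to 2.21). Of the 12 activin and inhibin genes 3 were measured, and Inhbb, the activin B subunit, was 2.89-fold lower from 12 UMIs against 45 (1.13-fold lower in cells high for no subunit).

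Of 14 genes of GnRH signalling and secretion, 11 were measured, 4 higher and 2 lower. The 4 higher were Atf3 (15.6-fold, 9.07 to 29.2), Jun (2.99-fold), Fos (2.89-fold) and Dusp1 (2.63-fold), which encode early response factors and a phosphatase. In the kept cells of the same libraries that were high for no subunit, Atf3 was 5.32-fold, Jun 2.31-fold, Fos 2.13-fold and Dusp1 1.03-fold higher. Of 12 granule and prohormone genes, 1 was higher and 6 lower, and the list's median was -0.53 on the log2 scale. Pcsk1, a prohormone convertase, was 3.90-fold lower and Vgf, a granule peptide precursor, 3.79-fold lower, against 1.72-fold lower and 1.31-fold higher in the cells high for no subunit. Of 14 genes of glycoprotein folding and sulfation, 10 were measured and 2 were lower, the chaperone gene Calr by 2.09-fold and Pdia4 by 1.79-fold, against 1.38-fold and 1.43-fold lower in cells high for no subunit.

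In the cells high for Cga and Tshb, 13 of 16 thyrotroph regulators were measured and 1 was higher, Nr4a1, an orphan nuclear receptor, at 46 against 11 UMIs (3.44-fold, 1.75 to 7.35, against 1.15-fold in cells high for no subunit). Trhr (53 against 51 UMIs) and Dio2 (269 against 185) were within 1.5-fold. Of 12 granule and prohormone genes, 11 were measured, 3 higher and 1 lower (median 0.31 on the log2 scale, against 0.03 for all genes). Pcsk2 was 2.64-fold and Scg2, which encodes secretogranin II, 2.04-fold higher, while Chga, which encodes chromogranin A, was 1.68-fold lower. Of 14 folding genes, 8 were measured and 3 were higher, with Hsp90b1 at 1.65-fold and P4hb at 1.59-fold. With the cells rich in Gh, Prl or Pomc kept in (77 in p25OE, 50 in WT), 2 granule genes and 2 folding genes were higher. Scg2 and Hsp90b1 were 1.36-fold and 1.13-fold lower in cells high for no subunit, and 2.05-fold and 1.64-fold higher in the Tshb set without the richest cell of each library. In cells high for no subunit Pcsk2 was 1.40-fold and Chga 2.67-fold higher. The 7 macrophage markers summed to 0.490 UMIs per 10000 in the Tshb set of WT and 4.12 in that of p25OE, with Csf1r at 0 in the former, and the 6 stem cell markers, all detected in both, to 14.5 and 5.81. Their part in the differences was not tested.

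Between the ages of WT, 1 of the 20 measured gonadotroph regulators was higher in the cells high for Cga with Lhb or Fshb, and 7 were lower, where 8.07% of all genes were higher and 29% lower. Tgfbr3l was 1.61-fold higher (1.49 to 1.73), beside 11.6-fold higher in cells high for no subunit, and Nr0b1 was 2.63-fold and Egr1 1.86-fold lower. Gnrhr was 1.57-fold lower (156 against 552 UMIs). In cells high for no subunit Egr1 was 1.78-fold lower and Gnrhr 8.33-fold higher (160 against 43 UMIs). In the cells high for Cga and Tshb, 0 of 11 measured thyrotroph regulators were higher and 4 lower, namely Trhr (1.70-fold), Thra and Thrb, the thyroid hormone receptor genes (1.72-fold each), and Lhx3 (1.59-fold). In cells high for no subunit Thrb was 2.50-fold lower, while Trhr was 3.46-fold, Lhx3 1.35-fold and Thra 1.08-fold higher. Of the 11 granule and prohormone genes measured there, 6 were higher and none lower, led by Pcsk2 (3.09-fold) and Cpe (1.94-fold), where 18.4% of all genes were higher and 29.3% lower. Cpe was also 1.72-fold higher in cells high for no subunit, and Pcsk2 1.07-fold higher. With the cells rich in Gh, Prl or Pomc kept in, 3 of 13 thyrotroph regulators were lower and 5 of 11 granule genes higher.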

How the data were processed

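Whole-number UMI counts of each gene in each barcode were used as deposited, with 1 matrix per library. The submitters' processing notes name Cell Ranger 3.0.2 and mm10. The header of each matrix gives version 3.0.1. The labels name a 3' v2 kit, and whether counting used the strand is not given in the sources used here. The members, gene lists, markers and thresholds were chosen with earlier results of these data known. The genes named are the 4 members, from each list up to 4 genes (the highest and lowest ratios), and the 5 genes most like each member. In the list comparisons Fos, Dusp1, Dio2, Gnrhr and Lhx3, and Trhr, were named outside that rule after their values were seen, as were Gnrhr, Trhr, Sox14, Gata2, Dio2, Rxrg, Foxl2 and Pou1f1 as markers.

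UMIs were summed over barcodes with at least 500 genes and at most 20% mitochondrial UMIs. Ratios were scaled by the median of ratios over genes with at least 20 UMIs in every library compared, with exact conditional Poisson intervals. Shares carry exact Clopper-Pearson intervals. Against 0 cells a floor of 3 counts per library was used. Calculations ran in Python 3.11.15 with numpy 2.4.6, scipy 1.17.1 and pandas 2.3.3, and the ratios were tested on simulated data. Other scalings, filters and thresholds were tried.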

Additional observations from a re-analysis of the deposited data

Results flagged for a closer look

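For 3 values p25OE lay above WT at 14 weeks with a counting interval that excludes 1, and below it at 40 weeks. For the share of Cga-high cells, p25OE exceeded WT by 1.35-fold at the younger age and lay 9.39-fold below it at the older. The share of Lhb-high cells was 1.40-fold higher and then 28.5-fold lower. The summed Tshb level was 1.70-fold higher and then 792-fold lower. At 14 weeks 1 p25OE cell held 4174 of the 29425 Tshb UMIs, which the counting interval does not take into account. The summed Cga and Lhb levels were lower in p25OE at 14 weeks (1.39-fold and 1.45-fold), opposite to the shares of their high cells. With 1 library per group the difference between the ages was not tested. Nor was the part in the 40-week values of the many melanotroph-marker cells of p25OE. The Tshb-high and Fshb-high shares had the same pair of directions (1.33-fold and 1.12-fold higher at 14 weeks), with 14-week intervals that include 1.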

How the results depend on the processing

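Log2 ratios of p25OE over WT at 14 weeks were -0.48 for Cga, -0.53 for Lhb, -0.45 for Fshb and 0.77 for Tshb after scaling to the median gene. As CPM without that scaling they were -0.20, -0.26, -0.18 and 1.04. As means over cells they were 0.22, 0.57, 0.14 and 0.88, the direction of the first 3 turned. With 1000 genes and 10% mitochondrial UMIs they were -0.14, -0.32, 0.036 and 1.28, and over all barcodes Cga was at -0.42, Lhb at -0.46 and Fshb at -0.35. At 40 weeks Cga (-5.81) was at -5.28 without scaling, -4.66 as a mean over cells and -5.98 with the stricter filter, and Lhb (-7.48) at -6.94, -6.31 and -7.70, and -6.83 over all barcodes. Tshb (-9.63) was at -9.10 and -8.77 under the first 2 of these. The share of Cga-high cells was at -4.05 with the stricter filter. With thresholds of 10 per 10000 no p25OE cell was Fshb-high against 15 in WT, and the floor of 3 counts gives a bound of -2.28, not a measured ratio. At 40 no cell of either library was Fshb-high, so that no ratio could be had. Without the barcodes of both libraries Cga was at -5.76. The causes were not tested.

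Of Lhb-high cells in WT at 40 weeks, 33.3% were Cga-high at the lower thresholds and 93.7% at the higher ones, and of those in p25OE at 14 weeks 96.1% at the higher ones. For Tshb-high cells of WT at 40 weeks the shares were 71.1% and 89.4%. In Lhb-high cells at 14 weeks the log2 ratio of Cga (-0.24) was -0.080 without scaling, -0.30 and -0.31 at the lower and higher thresholds, and that of Fshb (-0.28) -0.12 without scaling and -0.40 at the higher one. In Tshb-high cells that of Cga (-0.08) was 0.0039, -0.034 and -0.27 in the same order. Thinning to 1000 UMIs put Cga in 7.20%, 8% and 83.04% of T or NK marker cells. With no minimum of UMIs, 5964 genes were higher and 4443 lower by 1.5-fold at 14 weeks, against 2281 and 1339, and 5978 and 8847 at 40 weeks, against 3604 and 3512.

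The alternatives that leave out shared barcodes or cells high for other hormones, and the marker gates, were chosen after seeing the data. No paired analysis was possible because each group is 1 library. Fshb in p25OE at 40 weeks rests on 14 UMIs.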
